A study of Bos taurus with 30 samples.

Results

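DSG1, DSC1, PERP and GJB6 encode 4 proteins of the contacts between keratinocytes, the epithelial cells of the epidermis. All probe sets annotated to these 4 symbols were taken on a bovine expression array (Affymetrix), which reads each gene through sets of short probes. They came to 6 of the 24016 probe sets that are not controls, for 4 of 9155 annotated gene symbols. The arrays measured skin biopsies of F2 cattle, bred from Gyr, a Bos indicus breed, and the Bos taurus breed Holstein, in animals that the labels call tick resistant or tick susceptible. Skin from the places where ticks feed was biopsied before the ticks were put on (0 h) and again at 24 h and at 48 h. The resistant groups held 5 arrays at 0 h (animals 01 to 05), 6 at 24 h (01 to 06) and 5 at 48 h (01, 02, 03, 05 and 06). The susceptible groups held 3 arrays at 0 h (animals 09 to 11), 6 at 24 h (08 to 13) and 5 at 48 h (07, 09, 10, 11 and 13). In all there were 30 arrays of 13 animals. The labels name neither the tick species nor the ages of the cattle.

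Desmosomes are the rivet-like junctions that tie the keratin filaments of neighbouring keratinocytes together. Their adhesive core is made of 2 families of cadherins, the desmogleins and the desmocollins, which bind plakoglobin and plakophilins inside the cell. DSG1 (desmoglein 1) and DSC1 (desmocollin 1) are the cadherins of the upper epidermal layers, and DSG1 is the antigen of pemphigus foliaceus and a target of the staphylococcal toxins that split the superficial epidermis. PERP is a membrane protein of the desmosome, known as a target gene of p53 and p63. GJB6 encodes a connexin, a subunit of the gap junction channels through which small molecules pass between keratinocytes.

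The biopsies held the cells these genes belong to: the basal keratins KRT5 and KRT14 and the suprabasal keratin KRT10 lay above the array median in 30 of 30 arrays. Of the other keratinocyte markers, KRT15, COL17A1 and TGM1 did so as well, and ITGB4 did in 12 of 30. TP63, KRT1, IVL, LOR, FLG and SBSN were not among the annotated symbols. Dermal, vascular, muscle and immune genes were measured beside them, so each biopsy is a mixture of cells. In such bulk samples, fewer cells of a type and less RNA per cell cannot be told apart. The array of resistant animal 01 at 48 h lay farthest out on the first principal component, at 65.6 against 38.3 for the next highest array. Its mean of KRT5, KRT14 and KRT10 was 10.71 on the log2 scale, and the other resistant arrays at 48 h lay between 12.80 and 13.47. The comparisons of the 4 genes with resistant skin at 48 h are therefore also given without it. The animal numbers of 3 resistant arrays at 0 h are in doubt: over 100 probe sets chosen to tell animals apart, 03, 04 and 05 resembled the later arrays of 04, 05 and 06 more than those of their own number. Comparisons that pair arrays by animal are given with the numbers as labelled and with these 3 moved.

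DSG1 was lowest in resistant skin at 48 h. Its probe set Bt.161.1.S2_at was among the brightest of the array, at a mean of 13.53 on the log2 scale over 30 arrays. Before infestation it was read at 13.72, 13.72, 13.62, 13.68 and 14.04 in resistant animals 01 to 05, and at 13.72, 13.82 and 13.74 in susceptible animals 09 to 11. At 48 h the resistant arrays gave 12.06, 12.68, 13.23, 13.07 and 13.47 (animals 01, 02, 03, 05 and 06). All 5 of these lay below every resistant 0 h array. The susceptible arrays at 48 h gave 13.47, 13.80, 14.27, 12.93 and 13.59 (animals 07, 09, 10, 11 and 13), on both sides of their 0 h values. At 24 h the resistant arrays lay between 13.19 and 14.14 with a median of 13.66, and the susceptible arrays between 12.95 and 14.10 with a median of 13.75. These 24 h ranges overlapped each other and the 0 h values.

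The group mean of DSG1 was 12.90 ± 0.55 (SD, n = 5) in resistant skin at 48 h. The 5 other group means lay within a narrow band, from 13.59 ± 0.45 (SD, n = 6) in susceptible skin at 24 h to 13.76 ± 0.05 (SD, n = 3) in susceptible skin at 0 h. No step between neighbours in that band exceeded the larger SD of the 2 groups. The step of 0.68 down to resistant skin at 48 h exceeded it. In the limma fit, resistant 48 h minus 0 h was -0.85 ± 0.24 (SE), or 1.80-fold lower, at an unadjusted p of 0.00124 and a p of 0.274 adjusted over all kept probe sets, which missed the threshold of 0.05. Against 24 h the difference was -0.74 ± 0.23 (SE), at an unadjusted p of 0.00287 and an adjusted p of 0.378 (limma).

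The second DSG1 probe set, Bt.161.1.S1_at, was dim. It lay below the array median in all 30 arrays, between 0.60 and 6.43 on the log2 scale, and did not pass the filter on low values. Its lowest array was again that of resistant 01 at 48 h. Without a filter, its difference between resistant 48 h and 0 h was -1.53 ± 0.76 (SE), at an unadjusted p of 0.0546 and an adjusted p of 0.586 (limma). Across the 30 arrays the 2 DSG1 probe sets had a Pearson r of 0.72, which was 0.55 without resistant 01 at 48 h.

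**Figure D1:**
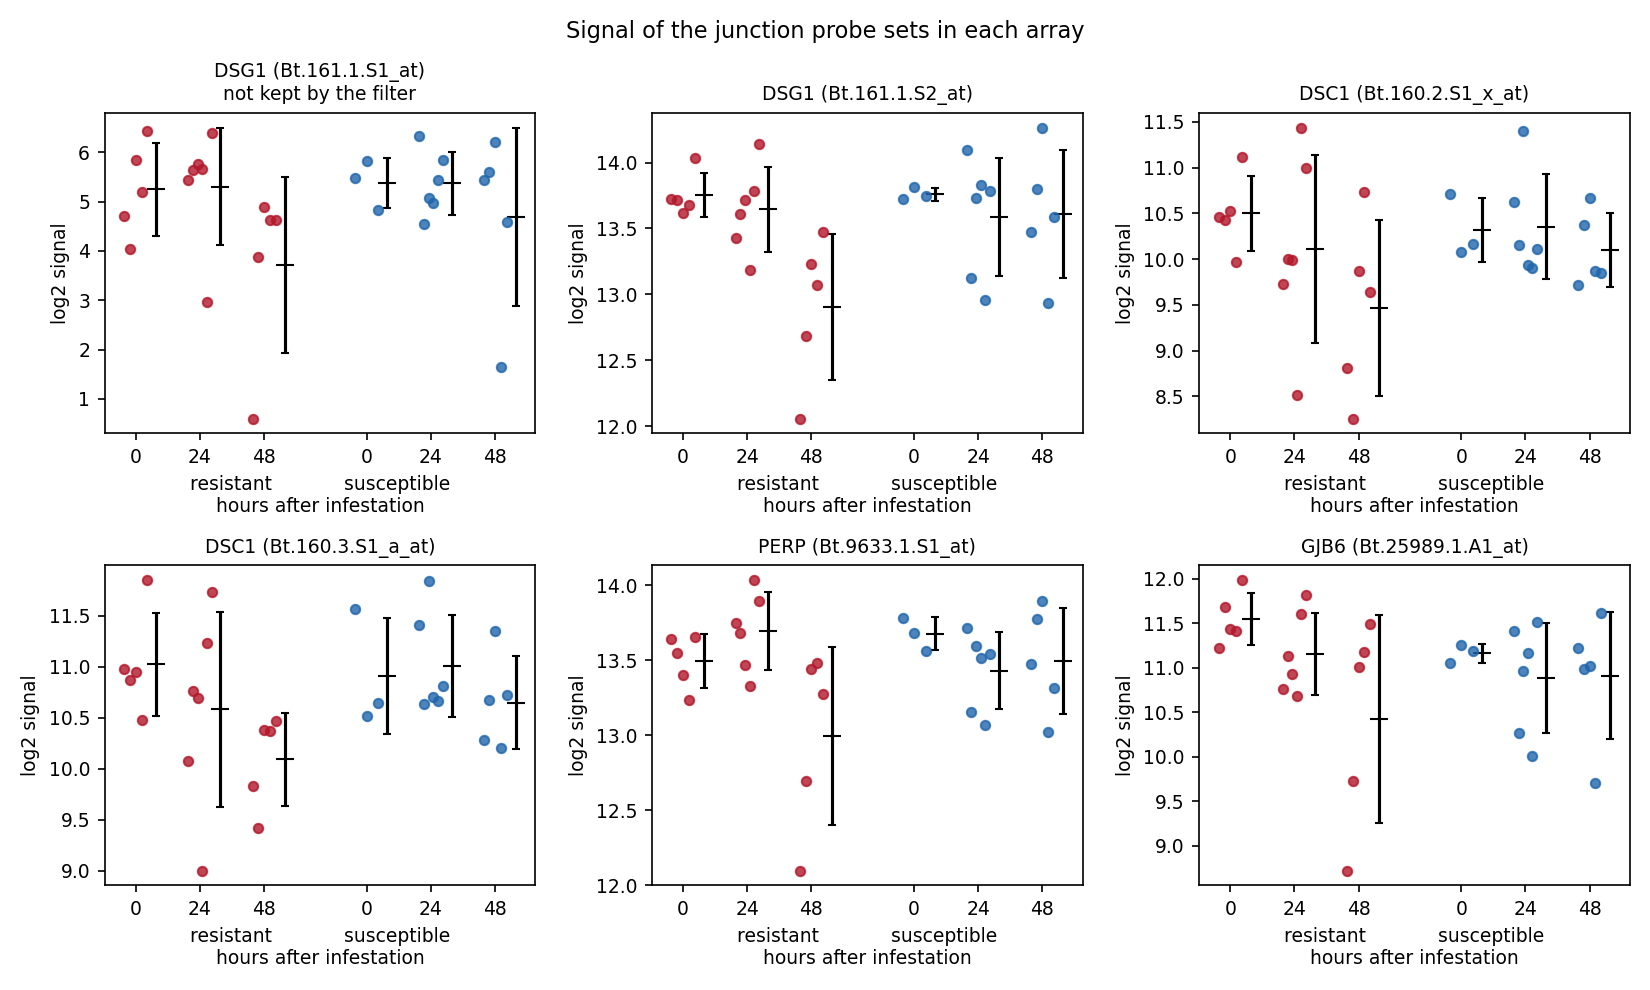
Log2 signal (vertical axis) of the 6 probe sets in each array by hours after infestation (horizontal axis), with resistant arrays in red and susceptible arrays in blue, and with the group mean and its SD as bars. In the DSG1 panel of Bt.161.1.S2_at, the 5 resistant arrays at 48 h lie between 12.06 and 13.47, below the 5 resistant arrays at 0 h, and the vertical scales differ between panels.

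DSC1 was read by 2 kept probe sets, whose values had an r of 0.91 over the 30 arrays. The suffix of Bt.160.3.S1_a_at means that it reads several transcripts of 1 gene, and that of Bt.160.2.S1_x_at that some of its probes can also match other sequences; they are called a_at and x_at from here on. In resistant skin, a_at was at 10.98, 10.87, 10.94, 10.48 and 11.85 at 0 h (animals 01 to 05). At 48 h it was at 9.83, 9.42, 10.38, 10.37 and 10.47 (animals 01, 02, 03, 05 and 06). The highest 48 h array was just below the lowest 0 h array, so the groups did not overlap. Susceptible arrays gave 11.56, 10.52 and 10.64 at 0 h (animals 09 to 11) and 10.28, 10.67, 11.35, 10.20 and 10.73 at 48 h (animals 07, 09, 10, 11 and 13), which overlapped. At 24 h the resistant values spread most, from 9.0 to 11.73 with a median of 10.72, and the susceptible values ran from 10.63 to 11.84 with a median of 10.76.

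The mean of DSC1 a_at was 11.02 ± 0.50 (SD, n = 5) in resistant skin at 0 h and 10.09 ± 0.45 (SD, n = 5) at 48 h. The difference was -0.93 ± 0.36 (SE), or 1.91-fold lower, at an unadjusted p of 0.0162 and an adjusted p of 0.359 (limma). DSC1 x_at gave -1.04 ± 0.42 (SE), at an unadjusted p of 0.0198 and an adjusted p of 0.367 (limma). Its resistant arrays at 48 h read 8.81, 8.26, 9.88, 10.74 and 9.64 (animals 01, 02, 03, 05 and 06), against 10.46, 10.43, 10.52, 9.97 and 11.12 at 0 h. Here animal 05 at 48 h lay above 4 of the 5 values at 0 h, so these groups overlapped. In the order of the 6 group means, resistant skin at 48 h was lowest for both DSC1 probe sets. No step between neighbours exceeded the larger of their 2 SDs.

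PERP (Bt.9633.1.S1_at), at a mean of 13.46 over 30 arrays, had a different course in resistant skin: its group mean was highest at 24 h and lowest at 48 h. At 0 h it was at 13.64, 13.55, 13.40, 13.23 and 13.66 in resistant animals 01 to 05. At 24 h it lay between 13.33 and 14.04 with a median of 13.71. At 48 h it was at 12.10, 12.69, 13.44, 13.48 and 13.28 (animals 01, 02, 03, 05 and 06), where animals 01 and 02 were low and the other 3 lay within the range at 0 h. Susceptible values were 13.78, 13.68 and 13.56 at 0 h, 13.07 to 13.72 with a median of 13.53 at 24 h, and 13.47, 13.78, 13.90, 13.02 and 13.32 at 48 h. These 3 susceptible groups overlapped. PERP in resistant skin at 48 h was -0.70 ± 0.19 (SE) against 24 h, or 1.62-fold lower, at an unadjusted p of 0.00124 and an adjusted p of 0.341 (limma). Against 0 h it was -0.50 ± 0.20 (SE), or 1.41-fold lower, at an unadjusted p of 0.020 and an adjusted p of 0.367 (limma). No step between neighbours in the order of its 6 group means exceeded the larger SD.

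GJB6 (Bt.25989.1.A1_at) was lower in resistant skin at 48 h than at 0 h on average, with values at 48 h spread over more than 2 log2 units. At 0 h it was read at 11.22, 11.68, 11.44, 11.41 and 11.99 in resistant animals 01 to 05. At 48 h it was at 8.72, 9.73, 11.01, 11.17 and 11.50 (animals 01, 02, 03, 05 and 06). Animals 01 and 02 lay far below the others, and animal 06 within the range at 0 h. Susceptible values were 11.05, 11.26 and 11.19 at 0 h and 11.22, 10.99, 11.02, 9.71 and 11.62 at 48 h (animals 07, 09, 10, 11 and 13). At 24 h, resistant values ran from 10.68 to 11.82 with a median of 11.03, and susceptible values from 10.01 to 11.51 with a median of 11.06. The mean in resistant skin went from 11.55 ± 0.30 (SD, n = 5) at 0 h to 10.43 ± 1.17 (SD, n = 5) at 48 h. The difference of -1.12 ± 0.40 (SE), or 2.18-fold lower, had an unadjusted p of 0.00839 and an adjusted p of 0.327 (limma). Resistant skin at 0 h had the highest group mean of GJB6, by a step of 0.38 that exceeded the larger SD of the 2 groups, and no other step in the order did.

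The question of the time comparisons is how skin changes after tick attachment within each phenotype. In resistant skin, 48 h against 0 h, all 5 kept probe sets of the 4 genes were lower at an unadjusted p under 0.05, where 11% of all 13809 kept probe sets passed that limit and 6.08% passed it in the lower direction. None of the 5 passed after adjustment, and neither did any other probe set (0%, limma), with 1522 at an unadjusted p under 0.05. The groups did not overlap for 2 of the 5, DSG1 and DSC1 (a_at), against 1.98% of all kept probe sets and 0.956% in the lower direction. Against 24 h, DSG1 and PERP were lower at an unadjusted p under 0.05, where 9.65% of all kept probe sets passed that limit. The comparisons with 0 h and with 24 h share the 5 arrays at 48 h and are not independent. The 4 genes were chosen with earlier results of these data known. Counts set against the share of all probe sets, here and below, are therefore no independent test.

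When the animal entered the model as a fixed term, which compares each animal with itself, 84 probe sets (0.608%) passed the adjusted threshold for resistant 48 h against 0 h. Among them were DSG1 at -1.03 ± 0.20 (SE, adjusted p = 0.0331), DSC1 at -1.34 ± 0.27 (a_at, adjusted p = 0.0358) and -1.39 ± 0.29 (x_at, adjusted p = 0.0393), and GJB6 at -1.38 ± 0.30 (adjusted p = 0.0464), all from limma. PERP did not pass. With the 3 doubtful animal numbers moved, 108 probe sets (0.782%) passed, and of the 4 genes only DSG1 did, at -0.96 ± 0.20 (SE, adjusted p = 0.0415). In that fit DSC1 was at -1.16 ± 0.32 (a_at) and GJB6 at -1.23 ± 0.32 (SE), so the calls of these genes depend on which animal the 3 arrays are taken to be. The calls also rest on resistant 01 at 48 h. Without that array 1 probe set (0.00724%) passed with the labelled numbers and 7 (0.0507%) with the 3 moved, and none was of the 4 genes. DSG1 was then at -0.86 ± 0.20 (SE, adjusted p = 0.111, limma) with the labelled numbers and at -0.78 ± 0.20 (adjusted p = 0.134) with the 3 moved. DSC1 (a_at) was at -1.43 and -1.22, and GJB6 at -1.05 and -0.87, in these fits.

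Without resistant 01 at 48 h, 2 of the 5 probe sets stayed under an unadjusted p of 0.05, against 9.17% of all kept probe sets: DSG1 at -0.64 and DSC1 (a_at) at -0.87. GJB6 was then at -0.70 (unadjusted p = 0.0566, limma) and PERP at -0.27 (unadjusted p = 0.130, limma), which is a change of over 1.5 times for both. Without resistant 02 at 48 h, DSC1 (x_at) was at -0.74 (unadjusted p = 0.0903, limma). Without resistant 05 at 0 h, DSC1 (a_at) was at -0.72 (unadjusted p = 0.0637, limma). For each of the 5 probe sets, leaving out any 1 array left the mean at 48 h below that at 0 h.

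**Figure D2:**
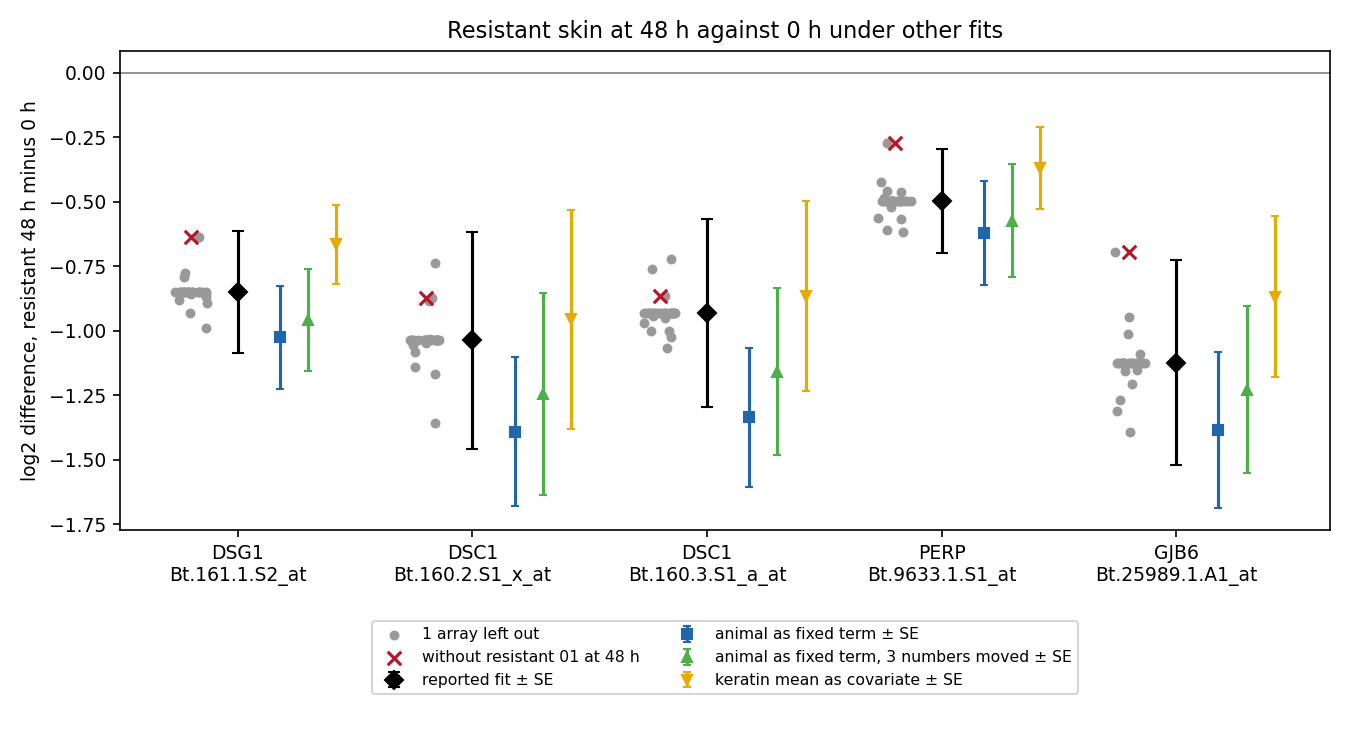
Log2 difference between resistant skin at 48 h and at 0 h (vertical axis) for the 5 kept probe sets: the reported fit (black), each fit with 1 array left out (grey, with resistant 01 at 48 h as a red cross), and the fits with the animal as a fixed term or the keratin mean as a covariate, with SE as bars. All points lie below 0, and leaving out resistant 01 at 48 h takes GJB6 from -1.12 to -0.70 and PERP from -0.50 to -0.27.

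Taken animal by animal, as labelled, DSG1 was lower at 48 h than at 0 h in 4 of 4 resistant animals with both arrays, by -1.66, -1.03, -0.39 and -0.96 in animals 01, 02, 03 and 05. Both DSC1 probe sets and GJB6 were lower in 4 of 4, and PERP in 3 of 4. The size was uneven: GJB6 differed by -2.50 and -1.96 in animals 01 and 02, and by -0.43 and -0.82 in animals 03 and 05. PERP differed by -1.54 and -0.85 in animals 01 and 02, and by 0.04 and -0.18 in animals 03 and 05. With the 3 numbers moved, DSG1, DSC1 (a_at) and GJB6 were lower in 4 of 4 animals, and DSC1 (x_at) and PERP in 3 of 4. The 48 h against 24 h pairs do not use the doubtful arrays. There, DSG1, PERP and both DSC1 probe sets were lower at 48 h in 5 of 5 resistant animals, and GJB6 in 4 of 5. The mean difference was -0.83 ± 0.34 (SD) for DSG1 and -0.77 ± 0.60 (SD) for PERP.

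**Figure D3:**
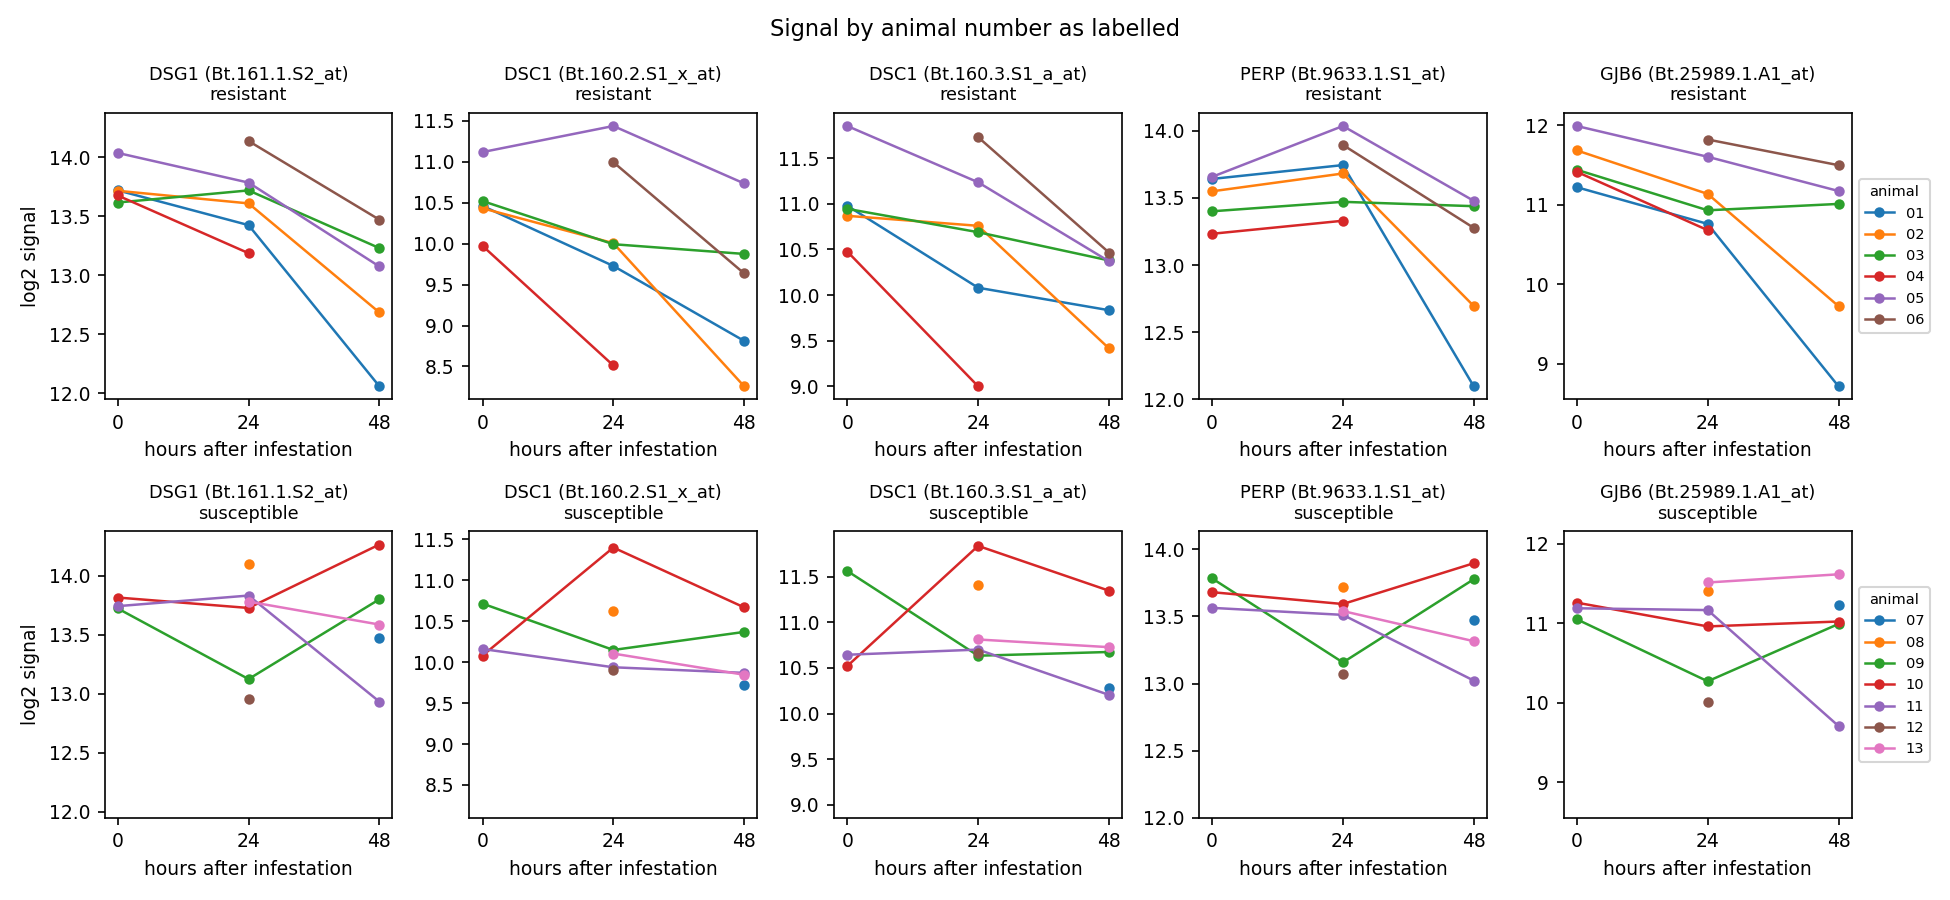
Log2 signal (vertical axis) of the 5 kept probe sets against hours after infestation (horizontal axis), with 1 line per animal as the labels number it, resistant animals above and susceptible animals below. The DSG1 lines of all 5 resistant animals measured at 24 h and 48 h run downward between these times, steepest in animal 01, and the susceptible lines run both ways.

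At 24 h the 4 genes in resistant skin did not differ from 0 h at an unadjusted p under 0.05, where 4.72% of all kept probe sets did. The differences were -0.11 ± 0.23 (SE) for DSG1, -0.44 ± 0.35 for DSC1 (a_at), 0.20 ± 0.19 for PERP and -0.39 ± 0.38 for GJB6. In the pairs of animals as labelled, GJB6 was lower at 24 h in 5 of 5 and PERP higher in 5 of 5. With the 3 numbers moved these counts were 4 of 5 each. In the model with a fixed animal term and the labelled numbers, DSC1 (a_at) alone had an unadjusted p under 0.05 for 24 h against 0 h, at -0.62 (6.72% of all kept probe sets), and with the 3 numbers moved none of the 5 had (7.64%). For GJB6 the interval of the reported difference ran from -1.17 to 0.38 (95%).

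In susceptible skin no probe set of the 4 genes had an unadjusted p under 0.05 in any of the 3 time comparisons, where 2.3% (24 h against 0 h), 0.949% (48 h against 0 h) and 1.88% (48 h against 24 h) of all kept probe sets did. For 48 h against 0 h the differences were -0.15 ± 0.27 (SE) for DSG1, -0.26 ± 0.42 for DSC1 (a_at), -0.18 ± 0.23 for PERP and -0.25 ± 0.46 for GJB6. With 3 arrays at 0 h these values are imprecise: the 95% interval of DSG1 ran from -0.71 to 0.41 and that of GJB6 from -1.19 to 0.68. Susceptible animal 11 was the low one at 48 h, at 12.93 for DSG1, 13.02 for PERP and 9.71 for GJB6. Without it the differences of DSG1 and GJB6 were 0.02 and 0.05.

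**Figure D4:**
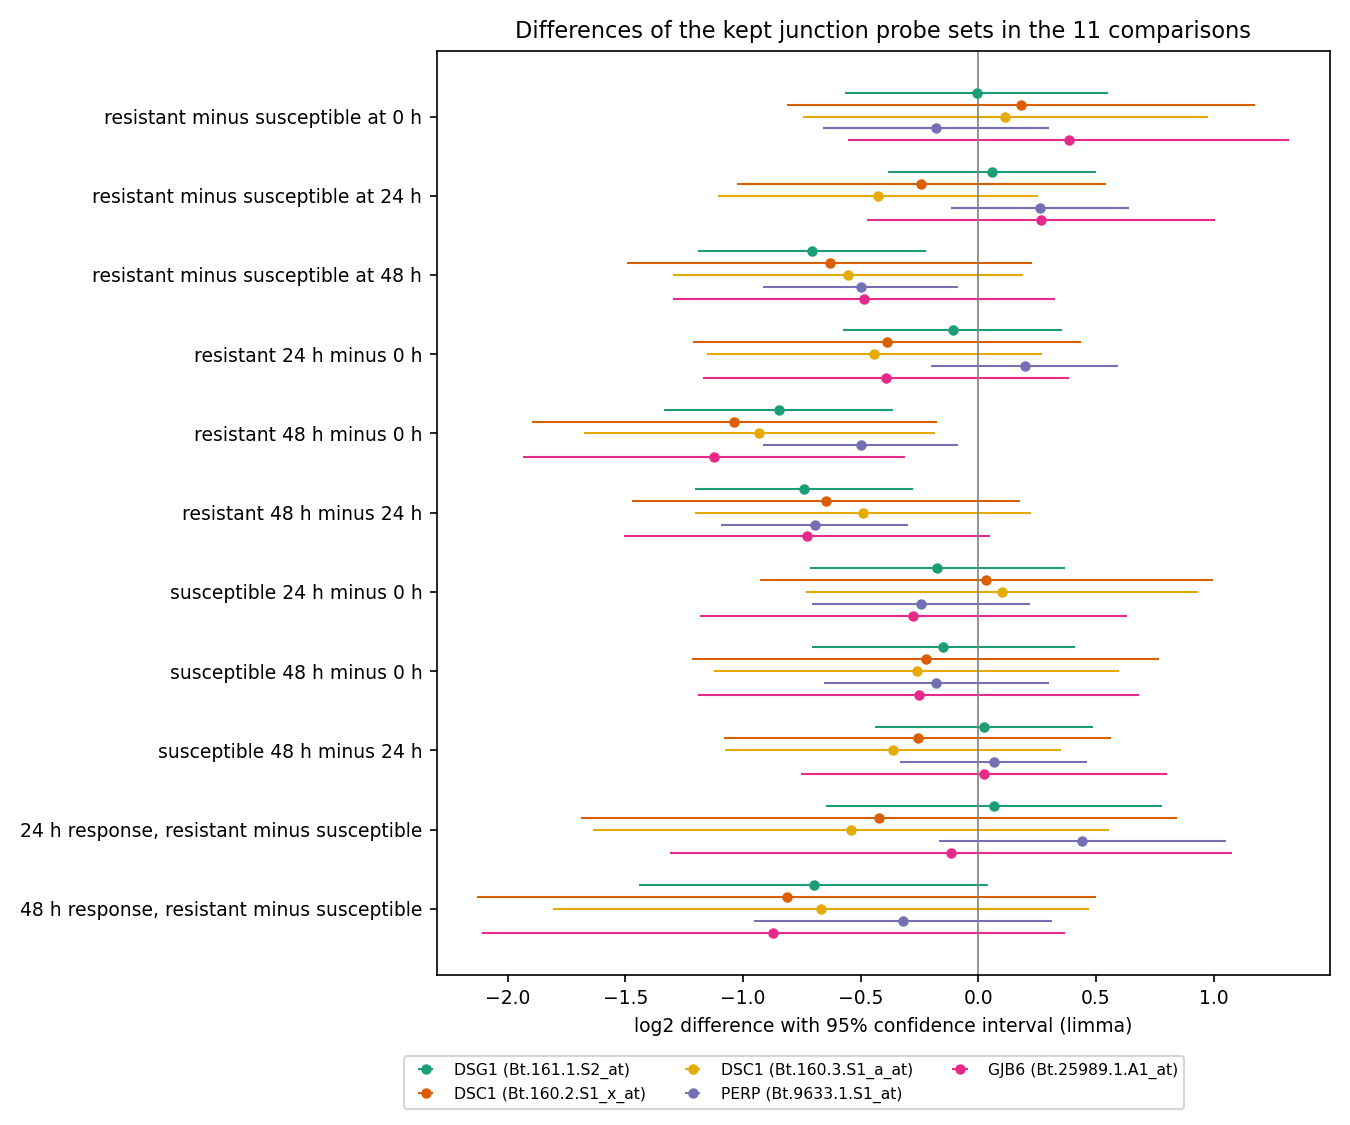
Log2 difference with its 95% confidence interval (horizontal axis, limma) of the 5 kept probe sets in the 11 comparisons (vertical axis). All 5 intervals lie below 0 for resistant 48 h minus 0 h, and none does for the susceptible comparisons or for the differences between the responses.

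Resistant and susceptible skin were then compared at each time. At 48 h, DSG1 was at 12.90 ± 0.55 (SD, n = 5) in resistant and 13.61 ± 0.49 (SD, n = 5) in susceptible skin. The difference of -0.71 ± 0.24 (SE), or 1.63-fold lower, had an unadjusted p of 0.00574 and an adjusted p of 0.311 (limma), and an exact permutation of the 10 arrays gave a two-sided p of 0.0635. PERP differed by -0.50 ± 0.20 (SE), at an unadjusted p of 0.0199 and an adjusted p of 0.415 (limma), and at p = 0.135 by exact permutation. The smallest p that 5 against 5 arrays allow is 0.00794. DSG1 and PERP made 2 of 5 probe sets at an unadjusted p under 0.05, where 10.1% of all kept probe sets and 5.45% in the lower direction passed it, and 0.0145% passed after adjustment. Resistant and susceptible values overlapped for all 5 probe sets, and did not for 1.19% of all kept probe sets. Without resistant 01 at 48 h the difference of DSG1 was -0.50 (unadjusted p = 0.0355, limma) and that of PERP -0.27 (unadjusted p = 0.130, limma). GJB6 went from -0.49 to -0.06.

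At 0 h and at 24 h no probe set of the 4 genes differed between the phenotypes at an unadjusted p under 0.05, where 4.51% and 4.4% of all kept probe sets did. DSG1 differed by -0.01 ± 0.27 (SE) at 0 h, with a 95% interval from -0.57 to 0.55, and by 0.06 ± 0.22 at 24 h. The largest differences at these times were GJB6 at 0 h, 0.38 ± 0.46 (SE) higher in resistant skin, and DSC1 (a_at) at 24 h, at -0.43 ± 0.33 (SE).

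Whether the 48 h response differed between phenotypes was tested by an interaction term. No probe set of the 4 genes reached an unadjusted p of 0.05, where 2.93% of all kept probe sets did, nor did any for the 24 h response (1.85%). The change from 0 h to 48 h in resistant minus that in susceptible skin was -0.70 ± 0.36 (SE) for DSG1 (unadjusted p = 0.0628, limma) and -0.67 ± 0.56 for DSC1 (a_at). It was -0.32 ± 0.31 for PERP and -0.87 ± 0.61 for GJB6, each with a 95% interval that included 0. With resistant 01 at 48 h left out, DSG1 was at -0.49, DSC1 (a_at) at -0.60, PERP at -0.095 and GJB6 at -0.44. In the model with a fixed animal term 3 of the 5 probe sets had an unadjusted p under 0.05 (4.48% of all), with the 3 numbers moved 1 did (5.38% of all), and 0 passed after adjustment in either fit. The same fits without resistant 01 at 48 h gave 3 of 5 (4.08% of all) and 1 of 5 (4.63% of all) under that limit. So the lower values in resistant skin at 48 h are not shown to be particular to that phenotype.

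The partners of DSG1, DSC1 and PERP in the desmosome had lower means as well. Of the other genes of the desmosome, 7 were measured and 7 had a lower mean at 48 h in resistant skin. The median of their differences from 0 h was -0.69, where that of all kept probe sets was -0.02. At an unadjusted p under 0.05, 5 of the 7 were lower, where 6.08% of all kept probe sets were, and none passed after adjustment. PKP3, PKP2 and PKP1, the plakophilins that link the cadherins to the keratin anchor, were at -0.81 ± 0.31, -0.69 ± 0.27 and -0.87 ± 0.34 (SE). DSC2, the desmocollin of most epithelia, was at -0.64 and the plakophilin PKP4 at -0.28. JUP, which encodes plakoglobin, was at -0.57 and the basal desmocollin DSC3 at -0.72, neither under that limit. With resistant 01 at 48 h left out, the count was 1 of 7 (4.49% of all in the lower direction) and the median -0.51. In susceptible skin the same genes had a median of -0.15 and 0 of 7 were under the limit, where only 0.949% of all were.

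Of the other gap junction genes, 4 were measured and 4 had a lower mean, by a median of -0.29. Of these, 1 was under an unadjusted p of 0.05, where 11% of all kept probe sets were. It was GJB2, the connexin gene best known from inherited deafness and thick skin disorders, at -0.79 ± 0.32 (SE). GJA1, the most widely expressed connexin gene, was at -0.24 ± 0.14 and GJB5 at -0.27 ± 0.27 (SE). GJB2, with resistant 01 at 48 h left out, was at -0.43 and 0 of 4 were under the limit (9.17% of all).

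Tight junctions seal the granular layer of the epidermis. Of their genes 9 were measured. In resistant skin 8 had a lower mean at 48 h than at 0 h, and the median difference was -0.49. Of the 9, 4 were under an unadjusted p of 0.05, where 11% of all kept probe sets were. F11R, an adhesion molecule of the tight junction, was at -0.46 ± 0.12 (SE, unadjusted p = 5.28e-04, adjusted p = 0.274, limma). LSR, a protein of the corners where 3 cells meet, was at -0.69 ± 0.23 and the barrier claudin CLDN1 at -1.17 ± 0.51 (SE). F11R was at -0.46 without resistant 01 at 48 h as well, where 2 of 9 genes were under the limit (9.17% of all).

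Adherens junctions join the actin skeletons of neighbouring cells. Of 6 genes measured, 4 had a lower mean, with a median of -0.18. Of the 6, 3 were under an unadjusted p of 0.05, where 11% of all kept probe sets were. The classical cadherins CDH3 and CDH1 were at -0.75 ± 0.27 and -0.66 ± 0.25 (SE), and their partner CTNNB1 at -0.21 ± 0.10. CDH3 passed the adjusted threshold in the model with a fixed animal term, both as labelled (-0.86, adjusted p = 0.0410, limma) and with the 3 numbers moved (-0.82, adjusted p = 0.0421, limma). Leaving out resistant 01 at 48 h, these fits gave -0.62 (adjusted p = 0.114, limma) and -0.57 (adjusted p = 0.134, limma), which did not pass. In the group fit that leaves out resistant 01 at 48 h, CDH3 was at -0.40. There 0 of the 6 genes were under the limit (9.17% of all). In susceptible skin 0 of the 19 gap, tight and adherens junction genes had an unadjusted p under 0.05 for 48 h against 0 h. Only 0.949% of all kept probe sets did there.

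**Figure D5:**
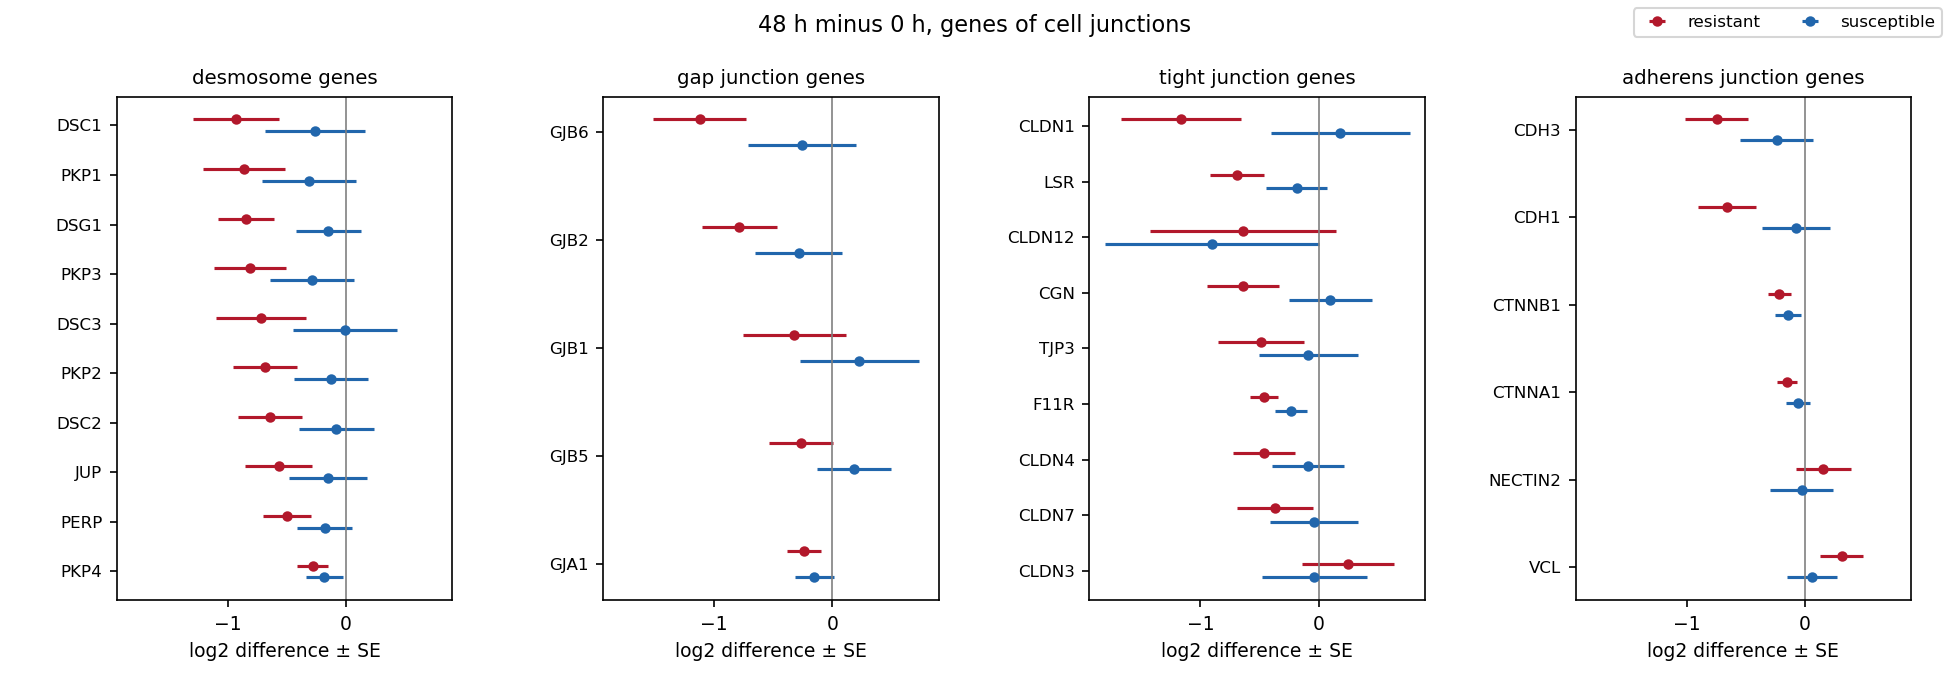
Log2 difference between 48 h and 0 h with its SE (horizontal axis) for the measured genes of 4 kinds of cell junction (vertical axis), resistant skin in red and susceptible skin in blue. Red points lie left of 0 for all 10 desmosome genes, DSG1, DSC1 and PERP included, and blue points lie nearer to 0 for most genes.

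Other values moved with the junction genes, and their part in the result was not tested. These lists too were chosen with earlier results of these data known. In resistant skin all 11 measured macrophage genes had a higher mean at 48 h than before infestation, by a median of 0.92. Of the 11, 10 were at an unadjusted p under 0.05, where 11% of all kept probe sets were. Without resistant 01 at 48 h, 6 of 11 were (9.17% of all) and the median was 0.77. AIF1 was at 0.88 ± 0.24 and CD68 at 1.04 ± 0.33 (SE). The mean of the 11 genes lay between 9.23 and 10.29 in the resistant arrays at 48 h, between 7.84 and 9.13 at 0 h, and between 7.76 and 9.01 at 24 h. In susceptible skin it lay between 8.19 and 8.72 at 0 h, 7.92 and 8.93 at 24 h, and 6.93 and 9.06 at 48 h. Of the fibroblast and matrix genes 14 of 15 had a higher mean in resistant skin at 48 h, by a median of 0.20. The mean of the 15 genes was 12.19 in resistant 01 at 48 h. In the other resistant arrays it lay between 11.29 and 11.82 at 48 h, and between 11.25 and 11.63 at 0 h. Of the 15, 1 was at an unadjusted p under 0.05 (11% of all), COL6A2 at 0.88 ± 0.35 (SE). Smooth muscle and endothelial markers had higher means too, in the fit that includes resistant 01 at 48 h. The muscle filament gene DES was at 2.05 (unadjusted p = 0.00307, limma), ACTA2 and MYH11 were at 0.55 each, and the endothelial PECAM1 was at 0.57 (unadjusted p = 0.0292, limma), TEK at 0.35 and CDH5 at 0.22. KRT5 and KRT14 were at -0.55 ± 0.32 and -0.82 ± 0.51 (SE), and KRT10 at 0.11. The mean of these 3 keratins lay between 12.74 and 13.63 in resistant skin at 0 h and, without resistant 01, between 12.80 and 13.47 at 48 h.

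With the mean of the 3 keratins in each array as a covariate, all 5 probe sets of the 4 genes had a lower mean in resistant skin at 48 h than at 0 h at an unadjusted p under 0.05, where 9.8% of all kept probe sets passed. None passed after adjustment. DSG1 was then at -0.67, DSC1 at -0.96 (x_at) and -0.87 (a_at), PERP at -0.37 and GJB6 at -0.87. This fit without resistant 01 at 48 h left 3 of 5 under the limit (11% of all), with DSG1 at -0.66, DSC1 at -0.88 in both probe sets, PERP at -0.29 and GJB6 at -0.72.

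Taken as the log2 signal minus the keratin mean of the same array, the differences between resistant 48 h and 0 h were smaller. DSG1 was at -0.43, DSC1 at -0.62 (x_at) and -0.51 (a_at), PERP at -0.079 and GJB6 at -0.70. On this scale the 24 h differences were of similar size, with DSG1 at -0.40, DSC1 at -0.69 (x_at) and -0.74 (a_at), PERP at -0.099 and GJB6 at -0.69. The keratin mean itself was higher at 24 h in resistant skin, at 13.35 against 13.05 at 0 h. KRT10 was at 0.63 ± 0.62, KRT14 at 0.21 ± 0.48 and KRT5 at 0.05 ± 0.31 (SE) in that comparison. After subtraction of the keratin mean, resistant skin at 48 h had the lowest group mean for DSG1 alone, at 0.27 against 0.30 in resistant skin at 24 h. The values depend on resistant 01 at 48 h, where the keratins were low: without it, the 48 h differences were -0.70 for DSG1, -0.94 (x_at) and -0.93 (a_at) for DSC1, -0.33 for PERP and -0.76 for GJB6.

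The difference between the 3' and 5' probe sets of actin and GAPDH is a measure of RNA quality. In log2 units it was 1.83, 1.25, 1.5, 1.81 and 1.48 in resistant animals 01 to 05 at 0 h, and 2.69, 2.36, 2.66, 1.08 and 2.32 in animals 01, 02, 03, 05 and 06 at 48 h. At 48 h, 4 of the 5 arrays lay above every 0 h array, and animal 05 below them all. The group mean of this 3' minus 5' difference in resistant skin was 1.57 at 0 h, 2.14 at 24 h and 2.22 at 48 h. In susceptible skin it was 1.61, 2.05 and 1.83. Over the 30 arrays, its r was -0.24 with DSG1, -0.41 (x_at) and -0.26 (a_at) with DSC1, -0.30 with PERP and -0.28 with GJB6. With this difference as a covariate, 3 of the 5 probe sets (DSG1, DSC1 a_at and GJB6) had an unadjusted p under 0.05 for resistant 48 h against 0 h, where 10.6% of all kept probe sets did, and none passed after adjustment. DSG1 was at -0.81 ± 0.25, DSC1 at -0.78 ± 0.43 (x_at) and -0.83 ± 0.39 (a_at), PERP at -0.40 ± 0.21 and GJB6 at -1.0 ± 0.42 (SE).

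Across the 30 arrays, DSG1 varied most closely with PERP (r = 0.88) and GJB6 (r = 0.85), and PERP with GJB6 (r = 0.79). DSC1 stood somewhat apart, with r from 0.57 to 0.72 against the other 3 genes for both of its probe sets. Without resistant 01 at 48 h, DSG1 against PERP was at 0.81 and against GJB6 at 0.76. Each r is a description over arrays that share animals and groups, and both genes of a pair come from the same RNA. Against the mean of the 3 keratins, r was 0.76 for DSG1 and 0.23 for DSC1 (a_at). Against the macrophage mean it was -0.83 for DSG1 and -0.61 for DSC1. Without resistant 01 at 48 h, these were 0.61 and 0.09 for the keratins, and -0.77 and -0.57 for the macrophage genes. Against the first principal component, r was -0.87 for DSG1, -0.52 for DSC1 (a_at), -0.80 for PERP and -0.85 for GJB6. Without that array these were -0.81, -0.48, -0.70 and -0.78.

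The genes whose signal was most like each of the 4 were found by Pearson correlation over the 30 arrays, among the 7016 genes with a kept probe set. For DSG1 they were SINHCAF (r = 0.92), GRHL1 (0.92), a transcription factor of epidermal differentiation, F2RL1 (0.91), MPZL2 (0.91) and ESRP1 (0.90), an epithelial splicing factor. The most opposite were AIF1 (r = -0.89), DAB2 (-0.89) and CD68 (-0.85). For DSC1 they were CKAP2 (0.83), KLF5 (0.80), BAMBI (0.79), CYP2U1 (0.79) and ZDHHC13 (0.78), and the most opposite were LGMN (-0.80), C3 (-0.79) and SFXN3 (-0.76).

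For PERP the closest were FAM83B (r = 0.88), DSG1 (0.88), LYPD3 (0.87), RHBG (0.87) and GJB2 (0.86), and the most opposite SYNE1 (-0.82), CD68 (-0.81) and AIF1 (-0.80). For GJB6 the closest was GJB2 (r = 0.94), the neighbouring connexin gene, followed by PKP1 (0.93), PKP3 (0.93), KRT23 (0.92) and TGM1 (0.92), the transglutaminase of the cornified envelope. The most opposite were SYNE1 (-0.85), LMO2 (-0.82) and TASOR (-0.81). No gene other than GJB2 among the closest 5 was shared by a pair of the 4 genes. These r values also describe arrays that share animals, and resistant 01 at 48 h is among them.

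In the cattle gene table (RefSeq, ARS-UCD2.0), DSG1 and DSC1 are neighbours at the inner edge of the desmosomal cadherin cluster, with DSG2, DSG3 and DSG4 on one side and DSC2 and DSC3 on the other. GJB6 lies near GJB2 and GJA3, with LOC107132994 between it and GJB2. PERP lies between TNFAIP3 and ARFGEF3. No coordinates are printed, since no source names a build for the array. The share of the variance between animals was 34.3% for DSG1, 44.7% and 50.9% for the 2 DSC1 probe sets, 26.5% for PERP and 42.5% for GJB6, where the median of all kept probe sets was 47.6%. The share between the 6 groups was 39.7% for DSG1, 25.8% and 21.5% for DSC1, 36.3% for PERP and 24.4% for GJB6. Its median over all was 17.1%.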

How the data were processed

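Skin RNA of 30 biopsies was amplified and labelled from 50 ng with a 3' IVT kit and hybridised to 1-colour arrays, per the labels' protocols. The authors deposited log2 values of MAS5 signal, a method named in the submitters' processing notes. On the linear scale each array had a 2% trimmed mean of 500, and array medians lay between 7.17 and 7.40 (log2). The number of arrays limits the precision. No further normalization was applied. The 112 control probe sets among 24128 were dropped, and 13809 of the others were kept because they reached the array median in at least 3 arrays. Symbols came from the platform annotation: 13292 probe sets had 1, 86 had several and 10638 had none.

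A model of 6 group means was fitted with limma 3.58.1 in R 4.3.3 (eBayes with an intensity trend), with 11 two-sided comparisons. The Benjamini-Hochberg adjustment ran over all kept probe sets, with a threshold of 0.05. The comparisons share groups. The reported fit has no animal term and treats repeated arrays of an animal as independent. It was checked on simulated data with independent noise in each array, which cannot test that point. There it called 73 of 100 changes of 1 log2 unit, 98 of 100 changes of 2 units and 11 unchanged probe sets.

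The 4 genes and all gene lists were chosen with earlier results of these data known. Lists covered desmosomes, gap, tight and adherens junctions, basal and suprabasal keratinocytes, junction proteases, wound keratins, hair follicle, glands, fibroblasts, macrophages and p53 targets. Named from them were the genes past the adjusted threshold or, where there were none, the 3 (junction lists) or 2 (other lists) with the smallest p in resistant 48 h against 0 h; DSC2, PKP4, JUP and DSC3 were added after their values were seen, as were KRT14, KRT10 and CCNG1. Each gene was represented by its kept probe set with the highest mean. Pairing comes from the labels, which number the animals and use the same numbers at each time within a phenotype. The check against the data found 5 of 8 arrays at 0 h closest to their own number (r of 0.949 to 0.977 over 100 probe sets), and resistant 03, 04 and 05 closest to 04, 05 and 06 (r of 0.966 to 0.976, against 0.361 to 0.778 for their own number). The alternatives were quantile normalization, median centring, an offset of 16, no filter, the animal as a random or fixed term, 3 numbers moved, only the groups compared, no trend, array weights, a keratin covariate (KRT1 was planned for it and is not among the annotated symbols), an exact permutation test and leaving out each array. Within-animal differences with 3 numbers moved, junction list counts under alternatives, fixed-term and keratin fits without resistant 01 at 48 h, a covariate of 3' minus 5' signal and values minus the keratin mean were added after seeing the data. Plots used matplotlib 3.10.9 in Python 3.11.15.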

Additional observations from a re-analysis of the deposited data

Results flagged for a closer look

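Across 30 pairs of a group and a probe set, 3 held an array far from the others, and chance alone flags about 1 in 20. DSG1 (Bt.161.1.S2_at) was at 14.04 in resistant 05 at 0 h, and the next array of the group was at 13.72. The dim DSG1 probe set Bt.161.1.S1_at was at 2.96 in resistant 05 at 24 h, with the next at 5.43, and at 0.60 in resistant 01 at 48 h, with the next at 3.87.

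PERP moved in opposite directions within animals between 0 h and 24 h. As labelled, it was higher at 24 h in all 5 resistant animals, by a mean of 0.16, and lower in all 3 susceptible animals, by a mean of -0.26. That difference between the pairs was not tested. The interaction term of the limma fit, which does not pair the arrays, was 0.44 ± 0.30 (SE, unadjusted p = 0.149). With the 3 doubtful numbers moved, PERP was lower at 24 h in 1 of 5 resistant animals.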

How the results depend on the processing

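For resistant 48 h against 0 h, the 5 kept probe sets of the 4 genes had a lower mean at 48 h under all alternatives run. The calls changed only with the animal as a fixed replicate block, where DSG1 (-1.03), DSC1 (-1.39 and -1.34) and GJB6 (-1.38) passed, and with 3 numbers moved, where DSG1 (-0.96) did. The block changed no other call of the 4 genes. The count of probe sets called for this comparison was 0 in the reported fit, 2 with the random block, 84 with the fixed block, 108 with 3 numbers moved, and 0 to 2 with 1 array left out. Without resistant 01 at 48 h the fixed block gave 1, and 7 with 3 numbers moved, none of the 4 genes. For resistant 48 h against 24 h it was 16 with 3 numbers moved and 0 to 1 with 1 array left out, and for resistant 24 h against 0 h it was 0 to 2 with 1 array left out. For resistant against susceptible skin at 48 h it was 2 as reported, 10 with median centring, 4 with no filter and 0 to 14 with 1 array left out. It was 0 with only the groups compared, array weights or the keratin covariate. Exact permutation also gave 0, with 931 probe sets at an unadjusted p under 0.05. With 5 against 5 arrays, that test allows no p below 0.00794. A call after adjustment would need very many probe sets at that p, so its 0 is no check of the reported calls. The cause of the shifts between these counts was not tested.

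Differences near 0 changed sign. DSG1 between phenotypes at 0 h was 0.00552 (quantile normalization), 0.052 (median centring), 0.024 (random block) and 0.13 (keratin covariate), and -0.078 to 0.027 with 1 array left out. At 24 h it was -0.10 with the covariate and -0.068 to 0.16 with 1 array left out. Its 24 h response differed by -0.060 (fixed block), -0.23 (covariate) and -0.061 to 0.17 with 1 array left out. For susceptible 48 h against 24 h with the covariate, DSG1 was at -0.091, PERP at -0.016 and GJB6 at -0.14 (also -0.14 with the fixed block, as labelled and with 3 numbers moved). Leaving out 1 array gave -0.14 to 0.19 for DSG1, -0.034 to 0.18 for PERP and -0.15 to 0.32 for GJB6 there. For susceptible 48 h against 0 h it gave -0.31 to 0.021 for DSG1, -0.46 to 0.064 for DSC1 (a_at) and -0.43 to 0.047 for GJB6. For susceptible 24 h against 0 h it gave -0.17 to 0.23 (x_at) and -0.094 to 0.43 (a_at) for DSC1. Between phenotypes DSC1 ranged from -0.092 to 0.44 at 0 h (a_at) and from -0.51 to 0.078 at 24 h (x_at), and the 24 h response of GJB6 from -0.29 to 0.0077. In the fits added without resistant 01 at 48 h, the keratin covariate gave 0.0040 for GJB6 between phenotypes at 48 h, and -0.090 for DSG1 and -0.095 for GJB6 in susceptible 48 h against 24 h. The fixed block there gave -0.045 for the 24 h response of DSG1, and 0.0035 for that of GJB6 with 3 numbers moved. With the 3' minus 5' covariate, GJB6 in susceptible 48 h against 24 h was -0.017.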

Other observations

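Other epidermal genes were compared between resistant skin at 48 h and 0 h, and none of these passed after adjustment (limma). Of the junction proteases and inhibitors 5 were measured, with a median of -0.26. ST14, which encodes matriptase, a membrane protease of the epidermis, had the smallest p of all lists, at -0.93 ± 0.22 (SE, unadjusted p = 2.18e-04, adjusted p = 0.262), and was at -0.73 without resistant 01 at 48 h. CTSV was at -0.26 ± 0.22. Of 9 suprabasal differentiation genes 6 had a lower mean, with a median of -0.62. Of the 9, 3 were at an unadjusted p under 0.05, where 11% of all kept probe sets were. The transcription factors GRHL1 and OVOL1 were at -0.85 ± 0.28 and -0.87 ± 0.36 (SE). Of all arrays, resistant 01 at 48 h had the lowest mean of the 9 genes. In the other resistant arrays it lay between 10.39 and 11.08 at 48 h, and between 10.3 and 10.95 at 0 h. Without resistant 01, the 48 h values of this list were therefore not below those at 0 h. Of 7 genes of the basal layer and hemidesmosome 5 had a lower mean, with a median of -0.44. The mean of the 7 genes was 9.39 in resistant 01 at 48 h. In the other resistant arrays it lay between 10.89 and 11.49 at 48 h, around the range of 11.07 to 11.30 at 0 h. The member with the smallest p, the integrin gene ITGB4, was higher, at 0.56 ± 0.24 (SE), and KRT5 was at -0.55 ± 0.32.

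Of 7 wound keratin and activation genes other than GJB6, 5 had a lower mean, with GJB2 at -0.79 ± 0.32 and KRT6B at -1.17 ± 0.58 (SE). The mean of these 7 genes was lowest of all arrays in resistant 01 at 48 h. In the other resistant arrays it lay between 9.63 and 10.20 at 48 h, within the range of 9.54 to 10.56 at 0 h. Of the p53 targets other than PERP, 9 were measured, with a median of 0.01. CDKN1A, a cell cycle inhibitor, was at -0.57 ± 0.22 and CCNG1 at 0.41 ± 0.19 (SE), the former chosen by the rule and the latter after its value was seen. Of 4 hair follicle genes 4 had a lower mean, with HOXC13 at -0.94 ± 0.33 and CRYM at -0.64 ± 0.37. Resistant 01 at 48 h was the lowest of all arrays in the mean of these 4 genes as well. The other resistant arrays lay between 9.38 and 10.23 at 48 h, and between 9.87 and 10.80 at 0 h. Of 9 sebaceous and sweat gland genes 7 had a lower mean, by a median of -0.35, with FAR2 at 2.62 ± 1.18 and SLC12A2 at -0.50 ± 0.26 (SE). The mean of these 9 genes was 9.30 in resistant 01 at 48 h. In the other resistant arrays it lay between 10.03 and 10.56 at 48 h, and between 9.82 and 10.34 at 0 h. PDGFRA, a fibroblast receptor gene, was at 0.44 ± 0.27 (SE).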
